A study of Sus scrofa with 189 samples.

Results

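The endothelial genes CDH5, PECAM1, KDR, TIE1, ENG and VWF were followed in the longissimus dorsi, the long back muscle, of 189 pigs. They were taken by symbol, and the listed transcripts of each gene identifier were summed. All 6 were among the 12651 genes of the deposited table and all 6 passed the filter on low values (a mean of at least 0.5 FPKM), as did 10717 genes in total. FPKM count sequenced fragments per unit of transcript length and per unit of library size.

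The animals were first-generation crosses of Duroc boars (8 in the series text) with Luchuan sows, killed at 210 ± 6 days of age and sampled 25 min after death. Polyadenylated RNA was sequenced with paired-end reads of 150 bp. The titles of 21 libraries carry the mark "re-analyzed", which the labels do not explain; 11 of these animals had a low and 10 a high intramuscular fat content (IMF, unit not stated). The other 168 libraries carry no mark and are called unmarked here, and IMF was recorded for 143 of them. Library numbers are those of the labels. No label names a batch, a parent or a muscle fibre type, and nothing was given to the animals as a treatment.

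Endothelial cells line the blood and lymph vessels, and in skeletal muscle they form the capillaries that run along the fibres. CDH5 (VE-cadherin) joins neighbouring endothelial cells, and PECAM1 (CD31) is an adhesion molecule of the same contacts that blood platelets and leukocytes also carry. KDR is the main signalling receptor for the growth factor VEGFA. TIE1 is a receptor that works with the angiopoietin receptor TEK. ENG (endoglin) is a co-receptor for ligands of the BMP and TGF-beta family. VWF is the blood clotting protein that endothelial cells store and secrete, and megakaryocytes make it too. Slow oxidative fibres are known to be surrounded by more capillaries than fast fibres.

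Other endothelial genes were detected beside the 6. Of a list of 45, 42 were in the table and 41 passed the filter, with a median of the gene means of 4.32 FPKM. Among these 41, PTPRB, NOS3 and TAL1 were at 0 in some libraries. Of 8 platelet and megakaryocyte genes, 3 were in the table, and the platelet integrin ITGA2B averaged 5.07 ± 2.10 FPKM (SD, n = 189). In whole muscle, fewer cells of a type and less RNA per cell cannot be told apart.

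In genome build Sscrofa11.1, as the deposited table gives the coordinates, ENG lies at chr1:268306120-268343936 on the minus strand and VWF at chr5:64517481-64660503 on the plus strand. CDH5 lies at chr6:27108499-27142921 on the plus strand and TIE1 on the same chromosome at chr6:167919671-167940579 on the minus strand. KDR lies at chr8:41809115-41856379 on the minus strand and PECAM1 at chr12:14667701-14723292 on the plus strand. The coordinates span each gene with its introns. KDR has 1 listed transcript and the other 5 genes have 2 each.

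VWF had the highest level, 24.9 ± 7.66 FPKM (SD, n = 189), with a lowest value of 9.98, a median of 24.4 and a highest value of 62.2. CDH5 followed with 16.8 ± 5.74 FPKM and a range from 2.45 to 34.8 (median 16.3). ENG was at 11.0 ± 3.45 FPKM, between 4.59 and 24.2 (median 10.4). The clotting protein and the junction cadherin led among the 6 genes per length, and none of the 6 genes was at 0 in any library.

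PECAM1 was at 8.35 ± 5.72 FPKM, with values from 1.09 to 36.6 and a median of 6.73. TIE1 was at 7.08 ± 2.08 FPKM, from 2.47 to 16.9 (median 6.88). KDR was at 6.19 ± 2.20 FPKM, from 2.43 to 15.2 (median 6.00). Within libraries the order of VWF above CDH5 held in 157 of 189, CDH5 above ENG in 175 and ENG above PECAM1 in 150. PECAM1 exceeded TIE1 in 90 libraries, so these neighbours were not separated, and TIE1 exceeded KDR in 128. VWF exceeded both TIE1 and KDR in all 189 libraries.

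**Figure D1:**
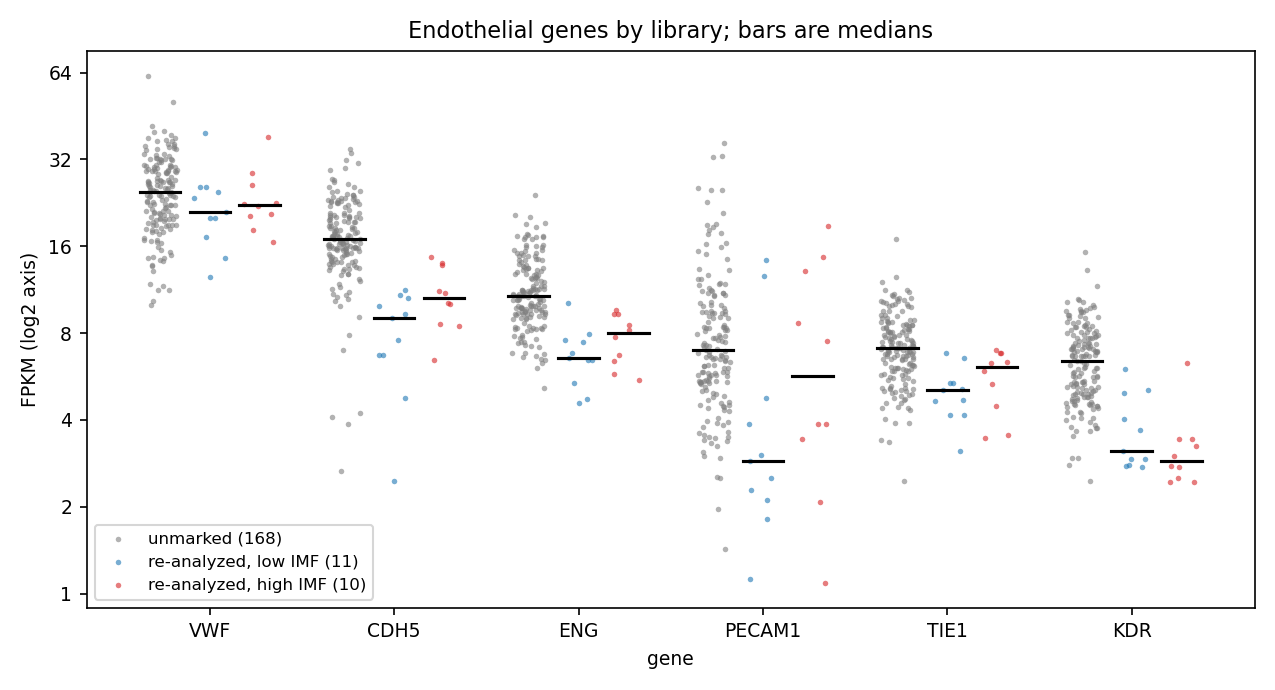
FPKM (log2 axis) of the 6 genes in each library, split into 168 unmarked, 11 re-analyzed low-IMF and 10 re-analyzed high-IMF libraries; bars are medians. The re-analyzed libraries lie lower for CDH5, ENG, TIE1 and KDR, while VWF overlaps widely and PECAM1 is spread from 1.09 to 36.6.

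The genes differed in how much they varied between animals. The SD of log2(FPKM + 1) was 0.760 for PECAM1, more than for 94.3% of the genes tested, and 0.547 for CDH5, more than for 80.2%. KDR (0.446), VWF (0.428), ENG (0.407) and TIE1 (0.370) lay nearer to the median of all genes, 0.374.

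PECAM1 was also looked at by transcript. Its longer transcript (7205 nt) held 18.0% of the summed FPKM on average and more than 50% in 19 libraries, and the shorter one (3354 nt) was at 0 in 3 libraries. The share of the longer transcript correlated with the summed level at r = -0.44 (permutation test, adjusted p = 4e-05 over the r and rho of 10 such relations). The summed level is also the denominator of the share, which ties them by construction. Permuted libraries do not keep this tie, so the p-values here and for the genes below cannot show a link beyond it. When each transcript was weighted by its length relative to the longest, that r was -0.16 (permutation test, adjusted p = 0.0454) and the SD of PECAM1 was 0.624. The mean of PECAM1 was then 4.45 FPKM, below KDR, and VWF (16.7) and CDH5 (16.5) were level. The order of the levels therefore depends on how transcripts of unequal length are added up. For CDH5 (transcripts of 4897 and 4813 nt) the share of the longer one correlated with the summed level at r = -0.38. The value with length weighting was also -0.38 (permutation test, both adjusted p = 4e-05). With summed levels TIE1 gave r = -0.17 (adjusted p = 0.0454), ENG 0.04 (0.622) and VWF -0.10 (0.25). The rho of VWF was -0.32 (adjusted p = 4e-05, permutation test).

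In some libraries CDH5 was low where other endothelial genes were not. Unmarked library 145 had 2.66 FPKM of CDH5, with PECAM1 at 11.0, KDR at 9.20 and ENG at 14.8, all above the medians of those genes. CDH5 was 4.08 in unmarked library 109, where KDR was 9.46 and VWF 37.2. It was 3.86 in unmarked library 1 and 4.21 in unmarked library 163, where KDR (5.62 and 4.22) was below its median too. In re-analyzed low-IMF library 20, with the lowest CDH5 of all (2.45), ENG was at its lowest too, 4.59. At the other end, unmarked library 39 had the highest CDH5 (34.8), KDR (15.2) and TIE1 (16.9), and it was also the library least like the others over all genes (median r 0.889).

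The clearest difference between sets of libraries was between re-analyzed and unmarked ones. CDH5 was at a median of 9.92 FPKM (range 2.45 to 14.7, n = 21) in the re-analyzed and of 16.9 (2.66 to 34.8, n = 168) in the unmarked libraries. All 21 re-analyzed values lay below the unmarked median, and 126 unmarked libraries lay above the highest re-analyzed one. At equal IMF (164 libraries) CDH5 fell by 0.84 on the log2(FPKM + 1) scale (SE 0.115, limma adjusted p = 4.83e-09).

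KDR had a median of 2.99 FPKM (2.43 to 6.32) in the re-analyzed and 6.41 (2.45 to 15.2) in the unmarked libraries, a difference of -0.71 (SE 0.0912, limma adjusted p = 6.58e-10). ENG had medians of 6.84 (4.59 to 10.1) and 10.8 (5.15 to 24.2), a difference of -0.57 (SE 0.0876, limma adjusted p = 8.24e-08). All 21 re-analyzed libraries were below the unmarked median for both genes, and for TIE1 as well. TIE1 had medians of 5.34 (3.13 to 6.96) and 7.10 (2.47 to 16.9) and fell by 0.37 (SE 0.0842, limma adjusted p = 0.00018).

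PECAM1 had medians of 3.86 (1.09 to 18.8) and 6.96 (1.42 to 36.6) FPKM and fell by 0.64 (SE 0.174, limma adjusted p = 0.00188), with 14 of 21 re-analyzed libraries below the unmarked median. VWF had medians of 22.1 (12.5 to 39.6) and 24.8 (9.98 to 62.2). Its difference of -0.13 (SE 0.0986, limma adjusted p = 0.304) did not pass the test, and the sets overlapped. With the share of the 10 most abundant genes as a covariate it was -0.23 (limma adjusted p = 0.0357). That share averaged 33.8% in the unmarked and 30.7% in the re-analyzed libraries.

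In this contrast 5 of the 6 genes were lower. Of all genes tested 22.7% were lower and 18.3% higher, 41.1% in either direction. The difference of CDH5 was below those of all but 0.327% of the genes, and that of KDR of all but 0.718%. The VWF difference was smaller than that of each of the other 5 genes. This was tested on the log2 ratios within all 21 re-analyzed and 168 unmarked libraries, without IMF in the model. The adjusted p was 7.5e-05 against CDH5 and against KDR, 0.00075 against ENG, 0.0102 against TIE1 and 0.0284 against PECAM1 (permutation test, 15 pairs). CDH5 and KDR also fell more than TIE1 (both adjusted p = 0.00075, permutation test).

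**Figure D2:**
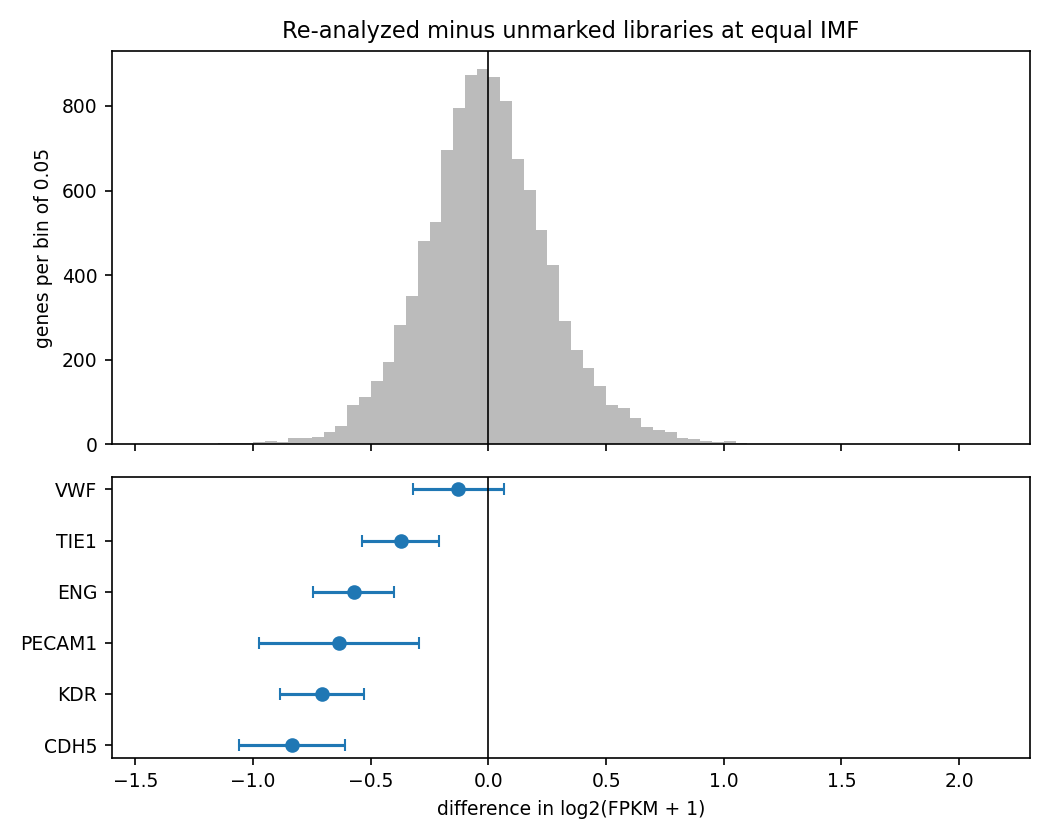
Upper panel, the re-analyzed minus unmarked difference in log2(FPKM + 1) at equal IMF for the 10717 genes tested, as genes per bin of 0.05. Lower panel, the same difference for the 6 endothelial genes with 95% intervals; CDH5 (-0.84) is the farthest below 0 and the interval of VWF (-0.13) includes 0.

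Other endothelial genes shared the direction. Of the 41 tested, 26 were lower and 2 higher, with a median of -0.35 beside -0.01 over all genes. The lower ones included the apelin receptor APLNR (-0.76, limma adjusted p = 2.07e-05), the sphingosine-1-phosphate receptor S1PR1 (-0.59) and CD93 (-0.57). The transcription factors SOX18 (0.56) and KLF2 (0.42) were the 2 that were higher.

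Around KDR and TIE1, 9 of 17 genes of VEGF, angiopoietin and Notch signalling were lower and 2 higher. Over all genes, 22.7% were lower and 18.3% higher. EPAS1, a hypoxia-inducible transcription factor, fell by 0.83 (limma adjusted p = 1.01e-12) and VEGFD fell by 0.60, while VEGFA, the ligand of KDR, was higher by 0.60 (SE 0.187, limma adjusted p = 0.0064). Around ENG, 5 of 14 BMP and TGF-beta pathway genes were lower, TGFBR2 (-0.59), TGFB1 (-0.40) and ID3 (-0.36) by the most, and the inhibitory SMAD6 was higher (0.33). Around CDH5, 7 of 9 junction genes were lower, led by the junctional adhesion molecule F11R (-0.76) and by CTNND1 (-0.53), the catenin that holds VE-cadherin at the cell surface.

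Genes of several other cell types were lower in the same libraries, where 22.7% of all genes were lower and 18.3% higher. Of 20 fibroblast genes 15 were lower, with summed levels of 352 to 1429 FPKM (median 751) in the re-analyzed and 352 to 2899 (median 1027) in the unmarked libraries. Of 10 fat cell genes 8 were lower (37.5 to 236, median 117, against 72.1 to 1877, median 158), and ADIG was the one at 0 in some libraries. Of 10 macrophage genes 8 were lower (11.0 to 61.6, median 32.5, against 18.5 to 143, median 48.9), and CD163 was at 0 in some. Of 10 pericyte genes 6 were lower, and of 27 nuclear genes of oxidative phosphorylation 16 were higher and 1 lower. Their part in the result was not tested.

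No endothelial gene passed the test against IMF itself. Over 164 animals the slope per unit of IMF was 0.03 (SE 0.0340) for CDH5, 0.08 (SE 0.0513) for PECAM1, -0.05 (SE 0.0269) for KDR, 0.00 (SE 0.0249) for TIE1, 0.02 (SE 0.0259) for ENG and 0.00 (SE 0.0291) for VWF. By limma 0 of 6 passed after adjustment, and none had an unadjusted p under 0.05. In the background 0.084% of all genes were called.

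Within the re-analyzed set, the 10 high-IMF libraries had a median CDH5 of 10.6 FPKM (6.43 to 14.7) and the 11 low-IMF libraries one of 8.99 (2.45 to 11.3). The difference was 0.43 (SE 0.191, p = 0.0348 before and 0.986 after limma's adjustment), and 7 of 10 high-IMF values lay within the low-IMF range or below it. PECAM1 differed by 0.58 (SE 0.391) and KDR by -0.16 (SE 0.141). No endothelial gene was called in this contrast, where 0.084% of all genes were.

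VWF was the one gene of the 6 that was called between title sets. The titles begin with the digits 15 in 69 animals and 16 in 120, whose meaning the labels do not state. VWF had a median of 26.0 FPKM (14.6 to 62.2) in the first and 22.7 (9.98 to 50.4) in the second, a difference of -0.21 (SE 0.0632, limma adjusted p = 0.0206), and the ranges overlapped. The other 5 lay between -0.05 (PECAM1) and 0.06 (ENG). In the background 11.9% of all genes were lower and 2.02% higher (7.42% and 6.28% with quantile normalization). The VWF call was lost with library medians aligned (adjusted p = 0.0582), with the share of the 10 most abundant genes as a covariate (0.126) and with the mitochondrial share as a covariate (0.356), all by limma.

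The difference of VWF from other members was tested directly. Its log2 ratio to ENG changed between the title sets (adjusted p = 0.0136), as did those to TIE1 and KDR (both adjusted p = 0.0288, permutation test, 15 pairs). Those to CDH5 (0.0713) and PECAM1 (0.503) did not pass.

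Animals that share the first 9 digits of the title (146 animals, 48 codes) were compared with those of other codes. The intraclass correlation, the share of variance between codes, ran from -0.07 for TIE1 to 0.12 for KDR. No member was called by limma's F test (lowest adjusted p 0.318, KDR) and none had an unadjusted p under 0.05, where 1.82% of all genes were called.

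Within the sets, after removal of the mean of each, 10 of the 15 pairs of endothelial genes passed the permutation test by r over 189 libraries, all positive. TIE1 was at the centre: it correlated with VWF (r = 0.49, Spearman rho = 0.46), ENG (r = 0.45, rho = 0.43), CDH5 (r = 0.42, rho = 0.56) and KDR (r = 0.42, rho = 0.37), each at an adjusted p = 2.14e-05 for r, from an unadjusted p of 1e-05, the smallest the permutations can give. With PECAM1 it was r = 0.32 (rho = 0.35). CDH5 and KDR gave r = 0.44 and rho = 0.56, and CDH5 and ENG r = 0.41 and rho = 0.54. For CDH5 the rank correlations were higher than r; without the 2 libraries farthest from the CDH5 median, r with KDR was 0.53. Against all genes tested these values differ in standing: KDR was more like CDH5 than 97.9% of the genes, but PECAM1 was more like CDH5 than 82.7% and more like KDR than 79.3%, and KDR was more like ENG than 87.2%. The standing depends on the gene taken as reference. CDH5 was more like PECAM1 than 95.6% of the genes, KDR more like PECAM1 than 94.7%, and ENG more like KDR than 91.4%.

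Of the other 5 genes, VWF passed with TIE1. Its r was 0.11 with CDH5, 0.09 with ENG, 0.06 with PECAM1 and 0.05 with KDR, none past the permutation test (adjusted p from 0.152 to 0.455), although PECAM1 did with length-weighted values (r = 0.15, adjusted p = 0.0486). Among all genes tested, TIE1 ranked 117th in likeness to VWF, whereas CDH5 was more like VWF than 40.2% of the genes were. PECAM1 and ENG were the fifth pair that did not pass by r (0.11, adjusted p = 0.152), although their rho of 0.16 did (adjusted p = 0.0336, permutation test). In the 168 unmarked libraries alone the r values of TIE1 with VWF, ENG, CDH5 and KDR were 0.49, 0.46, 0.45 and 0.45.

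**Figure D3:**
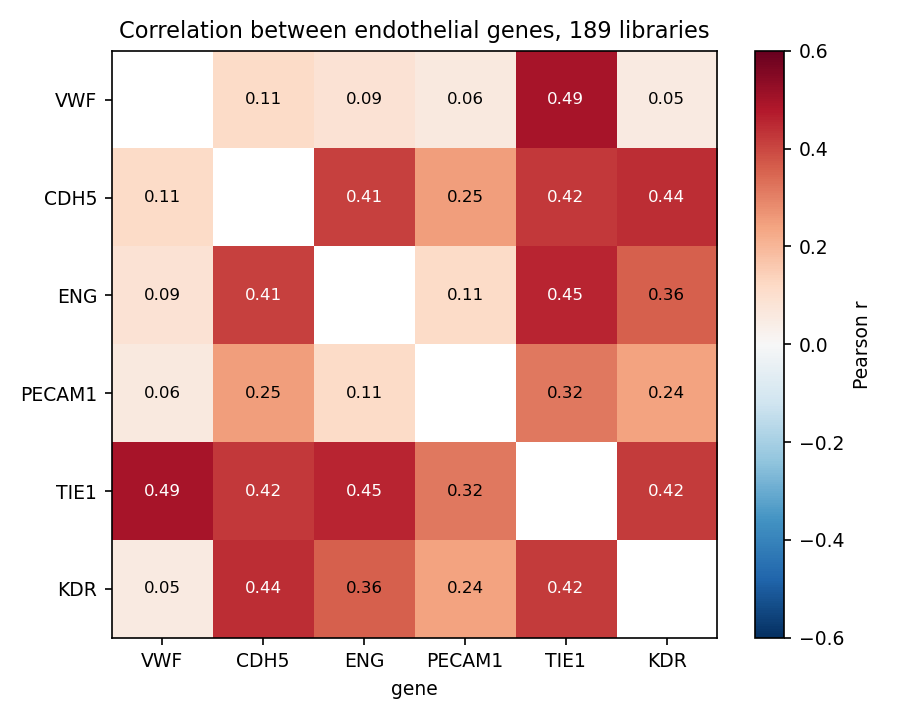
Pearson r between the 6 endothelial genes over 189 libraries (log2 values with the means of the unmarked and re-analyzed sets removed). VWF is pale with every gene except TIE1 (0.49), and TIE1 is at 0.32 or above with all 5 others.

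The genes most like each member over the 189 libraries were different ones. CDH5 was most like F11R (r = 0.60), TNFRSF21 (0.58) and PARVA (0.57), and KDR was most like F11R too (0.70), then CTNND1 (0.69) and the semaphorin receptor PLXND1 (0.67). TIE1 was most like CD93 (0.84), HSPA12B (0.82) and MAP3K11 (0.78). ENG was most like PTTG1IP (0.74), TNFRSF1A (0.72) and CCND3 (0.72). VWF was most like ANAPC2 (0.61), CYTH3 (0.61) and TUBGCP6 (0.61). For PECAM1 the first was KIAA0040, at 0.43. By the mean r over the 6 genes the first were HSPA12B (0.50), ECE1 (0.50), which makes the vessel-constricting peptide endothelin, CD93 (0.49), SEMA3G (0.48), EHD2 (0.48), FGD5 (0.47), CD34 (0.47), F11R (0.47), SDC3 (0.47) and TSPAN18 (0.46).

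For the relation to other cell types, each list was summarised as a score, the mean of the standardised log2 values of its genes. Fat cell genes went with 5 of the 6 endothelial genes. Correlations with the score of 10 fat cell genes were r = 0.44 for ENG (rho = 0.43), 0.36 for CDH5 (0.39), 0.33 for TIE1 (0.29), 0.28 for KDR (0.19) and 0.22 for PECAM1 (0.25), all past the permutation test over 84 relations (adjusted p 0.0048 for PECAM1 and lower for the rest). VWF gave 0.11 (adjusted p = 0.179). As slopes per SD of the score, ENG rose by 0.16 (SE 0.0239, limma adjusted p = 3.07e-09), CDH5 by 0.17 (SE 0.0324) and VWF by 0.05 (SE 0.0310, adjusted p = 0.217). The same 5 were called in the limma fit, where 34.2% of all genes rose and 6.75% fell (28.7% and 27.5% with quantile normalization, which called the same 5).

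Fibroblast genes gave higher r than fat cell genes for CDH5, KDR, TIE1 and PECAM1 and lower r for ENG and VWF; the difference between the scores was not tested. With the score of 20 such genes r was 0.46 for CDH5 (rho = 0.53), 0.44 for KDR (0.39), 0.37 for TIE1 (0.39), 0.34 for PECAM1 (0.38) and 0.32 for ENG (0.33), and 0.03 for VWF. Per SD of the score PECAM1 rose by 0.25 (SE 0.0504), CDH5 by 0.22 (SE 0.0310, limma adjusted p = 5.26e-10), KDR by 0.17, TIE1 by 0.13 and ENG by 0.11. The limma fit called 5 of 6, where 27.7% of all genes rose and 10.9% fell (24% and 28% with quantile normalization, which called the same 5). VWF differed from each of the other 5 in its relation to this score (adjusted p from 0.000111 for TIE1 to 0.0155 for ENG, permutation test over 210 relations).

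**Figure D4:**
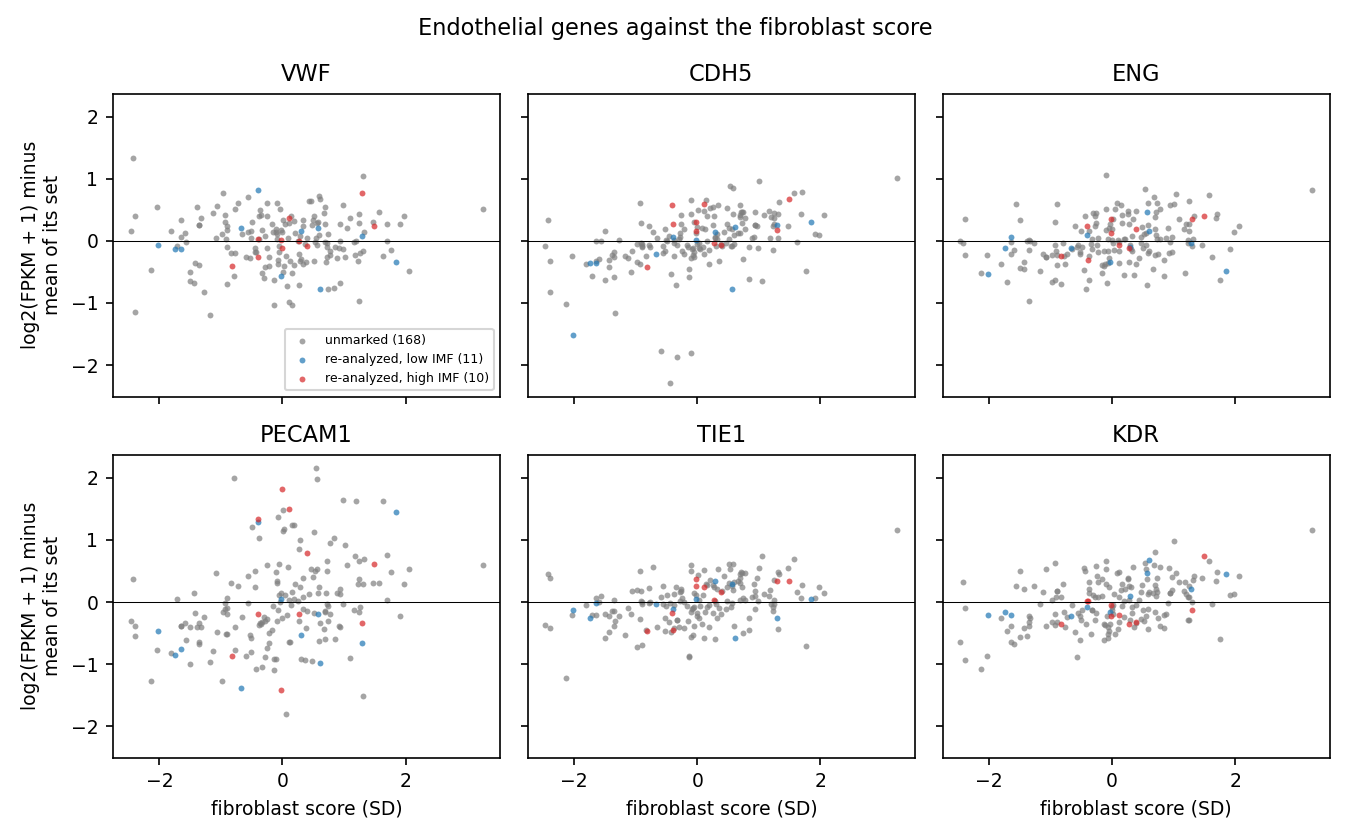
Each gene's log2(FPKM + 1) minus the mean of its set against the fibroblast score in SD units, 189 libraries. CDH5 and KDR rise along the score (r = 0.46 and 0.44), VWF is flat (0.03), and the 4 unmarked libraries and re-analyzed library 20 of low CDH5 stand below the cloud.

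The fat cell and fibroblast scores themselves correlated at r = 0.53, so both were fitted together with the slow fibre and nuclear oxidative phosphorylation scores. On the fat cell score ENG passed, with a slope of 0.14 (SE 0.0279, limma adjusted p = 2.14e-05), where 30.2% of all genes rose. On the fibroblast score CDH5 (0.18, limma adjusted p = 8.59e-06), PECAM1 (0.23, 0.00109), KDR (0.16, 1.69e-06) and TIE1 (0.10, 0.0021) passed, where 17.6% of all genes rose, and ENG had 0.04 (0.263). With medians aligned ENG passed as well (0.07, limma adjusted p = 0.0339). With the share of the 10 most abundant genes as a covariate CDH5 also passed on the fat cell score (0.08, limma adjusted p = 0.045).

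The endothelial neighbours followed the same scores. Of the 41 other endothelial genes, 26 rose with the fat cell score, among them CLEC14A (0.21), S1PR1 (0.17) and RAMP2 (0.16), and 25 with the fibroblast score, led by APLNR (0.31), CD34 (0.19) and BCL6B (0.19). None fell with either. Over all genes, 34.2% rose and 6.75% fell with the fat cell score, and 27.7% rose and 10.9% fell with the fibroblast score. TGFBR2, the type II receptor for TGF-beta, rose with both (0.20 and 0.25), and so did F11R (0.19 and 0.21). VEGFD rose with both as well (0.17 and 0.21).

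Slow fibre and nuclear oxidative phosphorylation genes gave low correlations, whose calls changed with the setting. With the score of 9 slow fibre genes r was 0.16 for CDH5, 0.14 for KDR, 0.10 for TIE1, 0.07 for PECAM1, 0.06 for VWF and 0.02 for ENG. The share of all genes with a lower r ran from 64.5% for ENG to 93.6% for CDH5, with 92.1% for KDR. With the fat cell score these shares ran from 56.4% for VWF to 93.9% for ENG. By r and by limma 0 of 6 passed with the slow fibre score after adjustment. CDH5 had an unadjusted limma p of 0.0312, and its rho of 0.16 passed the permutation test (adjusted p = 0.0433). In the 168 unmarked libraries alone CDH5 (r = 0.21) and KDR (r = 0.21) passed by r (both adjusted p = 0.0121, permutation test), while limma called neither there. The r of CDH5 also passed without library 39 (adjusted p = 0.0432) and with length-weighted values (0.0492, permutation test). In the background 4.87% of all genes were called, with 2.63% rising and 2.24% falling. With quantile normalization CDH5 and KDR were called higher, where 7.75% of all genes were, and with library medians aligned CDH5, KDR and TIE1, where 21.8% were. Both scalings also called CDH5, KDR and TIE1 higher with the fast fibre and glycolysis score, so these calls were not particular to slow fibre genes. The CDH5 slope there was 0.137 with quantile normalization (limma adjusted p = 0.000165) and 0.128 with medians aligned (0.000388). In the joint fit KDR rose by 0.09 per SD of the slow fibre score (SE 0.0292, limma adjusted p = 0.0443), where 0.845% of all genes rose, and this call was lost with quantile normalization (0.0755).

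With the score of 27 nuclear genes of oxidative phosphorylation r ran from -0.01 for KDR to 0.11 for ENG, and no endothelial gene was called by limma or had an unadjusted p under 0.05, where 12.2% of all genes rose. With quantile normalization KDR and ENG were called higher (23.8% of all genes), with medians aligned CDH5, TIE1 and ENG (43.7%). Relations to mitochondrially encoded genes differed in sign between members: ENG went down with their score (r = -0.43, rho = -0.44), CDH5 also (r = -0.19, rho = -0.28), and VWF went up (r = 0.21, rho = 0.24), all past the permutation test. ENG and VWF differed in this (adjusted p = 0.000111, permutation test), but 71.2% of all genes were called with that score, 48.8% rising and 22.3% falling. The VWF slope was 0.05 with quantile normalization (limma adjusted p = 0.115), -0.02 with medians aligned and -0.05 with the share of the 10 most abundant genes as a covariate. TIE1 and KDR were called lower with quantile normalization (-0.08 and -0.08) and with medians aligned (-0.11, limma adjusted p = 8.36e-06, and -0.12, 1.38e-05). The CDH5 call was lost with the top-10 share (0.0537), and PECAM1 was called higher with length-weighted values (0.0434).

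VWF and ENG stood on opposite sides of the fast fibre and glycolysis score as well (r = -0.34 and 0.24), with 61.3% of all genes falling and 8.07% rising. The VWF call was lost with quantile normalization (slope -0.03, limma adjusted p = 0.417), with medians aligned (-0.02, 0.458) and with the top-10 share as a covariate (-0.04, 0.664). The ENG call was lost with the top-10 share (slope -0.000530) and with the mitochondrial share (0.00693). KDR was called lower with the top-10 share (-0.185, limma adjusted p = 0.00311). With the mitochondrial share KDR (-0.0828, 0.0316) and TIE1 (-0.0775, 0.0273) were called lower. VWF rose with fatty acid oxidation genes (r = 0.31), where 43% of all genes were called, 39.2% rising and 3.79% falling. That call was lost with quantile normalization (slope 0.06, limma adjusted p = 0.115). Both genes moved with the make-up of the libraries: VWF correlated at r = -0.37 with the share of the 10 most abundant genes and at 0.40 with the number of genes of at least 1 FPKM, ENG at 0.29 and -0.22 (all past the permutation test over 18 relations). The part of these measures in the relations was not tested beyond the covariate fits.

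**Figure D5:**
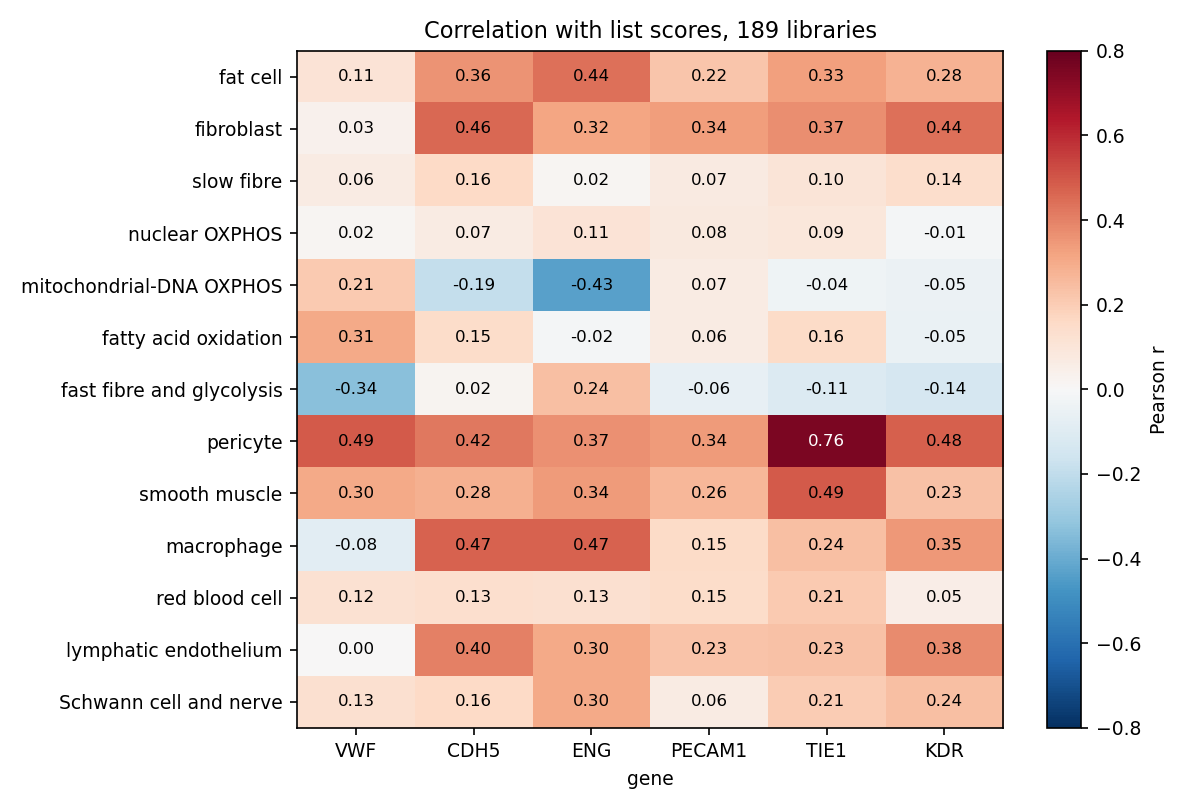
Pearson r of the 6 endothelial genes (columns) with 13 list scores (rows) over 189 libraries; OXPHOS is oxidative phosphorylation. The pericyte row is positive throughout and highest for TIE1 (0.76), the slow fibre and nuclear OXPHOS rows are pale, and VWF is near 0 in the fibroblast row (0.03).

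Pericyte genes gave the highest r of the list scores for TIE1, VWF, KDR and PECAM1, and macrophage genes for CDH5 and ENG. For PECAM1 the fibroblast score was level with it (both r = 0.34). By rho CDH5 was highest with pericyte genes (0.56), then fibroblast (0.53) and macrophage genes (0.49). Differences between scores were not tested. The median r over all genes differed too, from 0.20 with pericyte to -0.25 with fast fibre and glycolysis genes. By the share of all genes with a lower r, TIE1, VWF (96.5%) and KDR (96.1%) stood highest with pericyte genes. PECAM1 stood at 82.3% with pericyte and 88.4% with fibroblast genes. CDH5 stood at 93.1% with macrophage and 94.4% with fibroblast genes, and ENG at 93.0% with macrophage and 96.3% with fast fibre and glycolysis genes. Pericytes are the cells that wrap capillaries, and with the score of 10 pericyte genes r was 0.76 for TIE1, 0.49 for VWF, 0.48 for KDR, 0.42 for CDH5, 0.37 for ENG and 0.34 for PECAM1. All 6 were called by limma, where 60.1% of all genes rose and 2.11% fell (27.3% and 25.8% with quantile normalization, which also called all 6). TIE1 was above 99.99% of all genes in this correlation, and it differed from each of the other 5 (adjusted p 0.00269 for KDR and lower for the rest, permutation test). Single pericyte genes differed. NOTCH3 (r = 0.63 with TIE1 and 0.55 with VWF), CSPG4 (0.58 and 0.25) and PDGFRB (0.56 and 0.34) were among the higher ones with TIE1. RGS5 (0.22 and 0.32) and ABCC9 (0.01 and 0.38) were lower with TIE1, and both were negative with ENG (-0.34 and -0.40).

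With 7 smooth muscle genes r ran from 0.23 for KDR to 0.49 for TIE1, and all 6 were called by limma, where 29.3% of all genes were called and 28.9% rose. Macrophage genes went with CDH5 (r = 0.47), ENG (0.47), KDR (0.35) and TIE1 (0.24), while PECAM1 (0.15) and VWF (-0.08) did not pass by r, beside 63% of all genes called, 33.1% rising and 29.9% falling. For PECAM1, which leukocytes also carry, r had an adjusted p of 0.0617 and rho (0.18) one of 0.0197 (permutation test). Limma called PECAM1 with the macrophage score with a pseudocount of 0.1 (adjusted p = 0.0384), medians aligned (0.0438), the unmarked libraries alone (0.0442), the top-10 share (0.0293) and the mitochondrial share as a covariate (0.0112). It called VWF lower with quantile normalization (-0.06, adjusted p = 0.0423).

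The lymphatic endothelium score rested on 4 genes, LYVE1, FLT4, PDPN and CCL21, and PROX1 was not in the table. This score went with 5 of the 6 members. CDH5 had r = 0.40, KDR 0.38, ENG 0.30, TIE1 0.23 and PECAM1 0.23, and VWF had 0.00. In that fit 51.6% of all genes were called, 34% rising. Of the 4 Schwann cell and nerve genes' score the limma fit called ENG (r = 0.30), KDR (0.24) and TIE1 (0.21), where 28.1% of all genes were called and 22.2% rose. Without unmarked library 39 the TIE1 slope went from 0.07 to 0.05 and its call was lost (limma adjusted p = 0.134). CDH5 passed the permutation test by r (0.16, adjusted p = 0.0487) and by rho (0.22, adjusted p = 0.00521). Without library 39 its r was 0.12 and did not pass (adjusted p = 0.143, permutation test). Limma called CDH5 with quantile normalization (0.0226), medians aligned (0.0115) and the unmarked libraries alone (0.0185).

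Blood cell genes were few in the table. With 4 red blood cell genes r ran from 0.05 for KDR to 0.21 for TIE1, and limma called 0 of 6 members after adjustment, where 2.92% of all genes were called, 2.91% rising and 0.00933% falling. TIE1 passed the permutation test with that score (adjusted p = 0.00725), and by rho CDH5 (0.0226) and PECAM1 (0.0125) did too. ENG was called by limma with quantile normalization (0.0233) and ENG and TIE1 with medians aligned (0.00229 and 0.0162). The lymphocyte score rested on 1 gene, CD79A, at a low level (median 0.567 FPKM, highest 3.16). VWF rose with it (r = 0.41), while ENG (r = -0.30) and CDH5 (r = -0.19) fell, where 68.2% of all genes were called, 51.1% rising and 17.1% falling. The ENG and CDH5 calls were lost with the top-10 share (limma adjusted p = 0.0526 and 0.0896) and with the mitochondrial share as a covariate (0.0736 and 0.129). KDR and PECAM1 were also called lower with quantile normalization and with medians aligned.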

How the data were processed

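Per the submitters' processing notes, HISAT2 2.0.5 and StringTie 1.3.3 were used with build Sscrofa11.1. The deposited table lists 18114 transcripts. Its header names no unit, and the deposited values were taken as FPKM from the column layout. Read counts are not given, so the depth per library is unknown and errors are the spread between animals. With 8 boars behind the cross many animals must share a sire, but nothing says which animals share a parent. The main fits and the permutations treat animals as independent, so their p-values do not allow for shared sires. The annotation release is not given in the sources used here.

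FPKM were summed per gene and tested as log2(FPKM + 1), a scale that understates changes of low genes, with limma 3.58.1 in R 4.3.3 (lmFit, eBayes with trend), 2-sided. P-values were Benjamini-Hochberg adjusted over all genes tested, and a gene was called under 0.05. The re-analyzed mark was a covariate. Genes of a score's list were left out of its fit. Correlations and differences between members used 100000 permutations. The fits were tested on simulated data. Named genes were the members, the 3 most like each and the 10 most like all, and up to 3 called genes per list and direction. The members and the 20 lists were chosen with earlier results of these data known. Alternatives changed the pseudocount, filter, scaling, covariates, library set and title code block; the weighting of transcripts by length was chosen after seeing the data.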

Additional observations from a re-analysis of the deposited data

Results flagged for a closer look

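KDR in re-analyzed high-IMF library 155 stood apart from its group, at 6.32 FPKM where the other 9 libraries lay between 2.43 and 3.44. The gap was larger than Dixon's test allows at 95% for 10 samples. Chance gives a gap past that limit in about 1 in 20 groups, and this gap was well past it (0.739 of the range). The lowest and highest values of each of the 6 genes were searched in this group, which raises the chance of finding one. The same library had the highest CDH5 of the re-analyzed set, 14.7 FPKM.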

How the results depend on the processing

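The 25 counts of called members were recomputed under the alternatives; 234 of 262 stayed within 1.5 times the main count and 28 moved. The counts for re-analyzed against unmarked, for fat cell and fibroblast scores and for pairs were among those that stayed. With medians aligned, the called members went from 1 to 0 for the title digits, from 0 to 3 for the slow fibre score, from 0 to 3 for nuclear oxidative phosphorylation, to 4 for fast fibre and glycolysis, to 2 for red blood cells, to 5 for lymphocytes and to 1 for nuclear oxidative phosphorylation in the joint fit. With quantile normalization they were 2, 2, 4, 1 and 5 for slow fibre, nuclear oxidative phosphorylation, fast fibre and glycolysis, red blood cell and lymphocyte scores, 0 for fatty acid oxidation, and in the joint fit 0 for slow fibre and 2 for nuclear oxidative phosphorylation.

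With the top-10 share as a covariate they were 0 for the title digits, 1 each for mitochondrially encoded genes, for fast fibre and glycolysis, for lymphocytes and for nuclear oxidative phosphorylation in the joint fit, and 2 each for fatty acid oxidation and for the fat cell score in the joint fit. With the mitochondrial share they were 0 for the title digits, 1 for nuclear oxidative phosphorylation alone and jointly, and 3 for fatty acid oxidation. The fatty acid oxidation count was 2 in unmarked libraries alone and 2 with length-weighted values.

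Of 2094 values of single genes and pairs, 14 reversed. On nuclear oxidative phosphorylation KDR had a slope of 0.0666 (r = 0.177) with quantile normalization. On fast fibre and glycolysis TIE1 had 0.0774 (r = 0.227) and KDR 0.104 (r = 0.276) with quantile normalization, and 0.0825 (r = 0.240) and 0.0759 (r = 0.202) with medians aligned; ENG had -0.000530 with the top-10 share. On mitochondrially encoded genes VWF had -0.0238 (r = -0.0619) with medians aligned and -0.0466 with the top-10 share. The cause was not tested. Depth is unknown, so no limit from counting could be set. The promoter search named among the planned steps was not run. Library numbers are not shared between groups and pair no samples. With the title code, which some re-analyzed and unmarked animals share, as a random block, none of the 21 counts refitted moved.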
